A study of Mus musculus with 9 samples.

Results

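CARM1 is an arginine methyltransferase that works at promoters and enhancers together with transcriptional coactivators. The 8 genes described here encode such partners: the p160 nuclear receptor coactivators Ncoa1, Ncoa2 and Ncoa3, the acetyltransferases Ep300 and Crebbp, the SWI/SNF ATPase Smarca4, the MLL3/MLL4 complex subunit Paxip1 and the Mediator subunit Med12. They were chosen by symbol, and all 8 were among the 16070 rows of the expression table and among the 11850 genes tested.

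Transcript levels were measured in C57BL/6 mouse embryos cultured in vitro and taken 4.5 days after microinjection, about the late blastocyst. There were 3 groups of 3 libraries, labelled wild type (WT), H3R17H (arginine 17 of histone H3 substituted by histidine) and Carm1-/-. The age label counts from microinjection in all 3 groups, WT included, and the series title names CRISPR-Cas9 as the editing tool. Some labels call the material E4.5 embryo and the protocol speaks of a single cell, and no label ties each library to its own embryo; p-values then cover only library-to-library spread, which may be technical.

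In the textbook order of events, a ligand-bound nuclear receptor recruits a p160 protein through short leucine-rich motifs. The p160 protein then brings in p300 or CBP, which acetylate histones, and CARM1, which methylates histone H3 and several of the coactivators themselves. SWI/SNF remodels the nucleosomes, MLL3/MLL4 complexes methylate histone H3 lysine 4 at enhancers, and Mediator passes the signal to RNA polymerase II. CARM1 is also known to favour the inner cell mass fate in the mouse embryo.

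The values are FPKM, fragment counts scaled by transcript length and library size. Levels of different genes are compared here as FPKM, though the transcript lengths used are not known. The depth behind the values is unknown. Differences are on the log2(FPKM + 1) scale from limma over all tested genes, with Benjamini-Hochberg adjustment and a threshold of 0.05. This scale understates differences of genes near or under 1 FPKM. Carm1, the gene that checks the labels, was at 8.86, 7.08 and 6.65 FPKM in the WT libraries (replicates 1 to 3), at 1.88, 0.02 and 1.22 FPKM under the H3R17H label and 6.44, 12.68 and 9.52 FPKM under the Carm1-/- label. The labels and this gene thus go against each other, as do the titles and the column names, and every group is named here by its label. All 3 WT libraries and replicate 1 of each edited group held Y-linked transcripts (summed over Ddx3y, Eif2s3y, Uty and Kdm5d, 28.1 to 36.6 FPKM), whereas replicates 2 and 3 of both edited groups had at most 0.00796 FPKM. Xist, the RNA that silences an X chromosome, was at 16.58 to 32.54 FPKM without Y-linked transcripts and at 0.19 to 0.43 FPKM with them, except for 4.84 FPKM in replicate 1 labelled H3R17H, which held both. Replicate 1 labelled Carm1-/- lay at -43 on the first principal component, within the WT range of -44.1 to -33.8, and the other 5 edited libraries lay at 1.7 to 70.7. The summed FPKM of 13 trophectoderm markers (the outer layer of the blastocyst) was 5670 to 8700 in WT, 1630 to 4630 under the H3R17H label and 2070 to 9150 under the Carm1-/- label. The keratins Krt8 and Krt18 made up most of this sum in every library (2229.07 and 2663.39 FPKM in WT replicate 1). Of the 12 tested, 9 had lower and 3 higher values than WT under each label. The median log2 differences were -1.20 and -1.06. The summed FPKM of 12 epiblast markers was 315 to 418, 373 to 404 and 371 to 407 in the 3 groups. Its members moved unevenly: Pou5f1 and Nanog were at 41.92 and 36.08 FPKM or more in every library, while Tdgf1 was at 39.90 to 56.06 FPKM in WT and 5.94 to 18.36 FPKM under the H3R17H label. There 8 of the 12 had lower and 4 higher values than WT, with a median log2 difference of -0.30. Prdm14 was listed at 0 in 2 of these libraries. Under the Carm1-/- label 7 had lower and 5 higher values, with a median of -0.14. Zfp42 was higher under both labels, at 45.48 to 50.20 FPKM in WT, 81.81 to 107.17 FPKM (H3R17H) and 74.28 to 135.74 FPKM (Carm1-/-). For 11 primitive endoderm markers the sums were 239 to 291, 202 to 226 and 119 to 285. Of the 10 tested, 8 had lower and 2 higher values than WT under each label, with median log2 differences of -0.44 and -0.34. No marker of these lists with a row was at 0 in every library. In bulk RNA, fewer cells of a type and less RNA per cell cannot be told apart.

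Promoter sequence is shown for the pair of partners whose 100 bases before the RefSeq start (GRCm38.p6) lie outside every GENCODE exon: Ncoa1, the partner that passed the test in 1 alternative fit, and Smarca4, the neighbour of Carm1. Both are written 5′ to 3′ on the strand of the gene, the Ncoa1 stretch at chr12:4477183-4477282 on the minus strand and the Smarca4 stretch at chr9:21616069-21616168 on the plus strand. Capitals mark matches to the GC box GGGCGG on either strand.
Ncoa1: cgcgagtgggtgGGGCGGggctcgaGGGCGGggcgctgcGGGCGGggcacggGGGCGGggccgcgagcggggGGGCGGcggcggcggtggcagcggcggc
Smarca4: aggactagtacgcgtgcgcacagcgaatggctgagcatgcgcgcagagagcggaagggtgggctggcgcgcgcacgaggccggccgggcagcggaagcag

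The Ncoa1 stretch held 5 GC boxes and 19 CG dinucleotides, and the Smarca4 stretch held 0 and 14, against a median of 3 CG dinucleotides over all RefSeq windows. RefSeq windows were at hand for 6 of the 8 partners. Over the 250 bases before the start all 6 held a GC box, against 32.7% of 32851 windows. None of the 6 held CCAAT (33.9% of windows), TATAAA (12.4%), CCGGAAGT (2.88%) or CACGTG (6.02%), and Paxip1 alone held the palindromic NRF1 motif (0.78%). All 6 motifs were searched on both strands, and none lies within another. These matches describe the letters only.

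The partners spanned a wide range of levels. In WT the order by mean FPKM was Ncoa3, Smarca4, Crebbp, Paxip1, Ncoa1, Med12, Ep300 and Ncoa2. Ncoa3 averaged 51.8 ± 3.63 FPKM in WT (SD, n = 3) and was above 85.5% of the tested genes, while Ncoa2 averaged 1.98 ± 0.18 FPKM and was above 25.1%. The libraries of neighbours in this order did not overlap from Ncoa3 down to Ncoa1, and from Ncoa1 to Ncoa2 each neighbour overlapped the next. Ncoa3, Smarca4, Crebbp and Paxip1 took the first 4 places in that order in all 3 groups, and the order of the other 4 changed between groups where their libraries overlapped. Under the H3R17H label the lower places ran Ep300, Ncoa2, Ncoa1 and Med12, and under the Carm1-/- label they ran Ep300, Med12, Ncoa1 and Ncoa2.

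**Figure D1:**
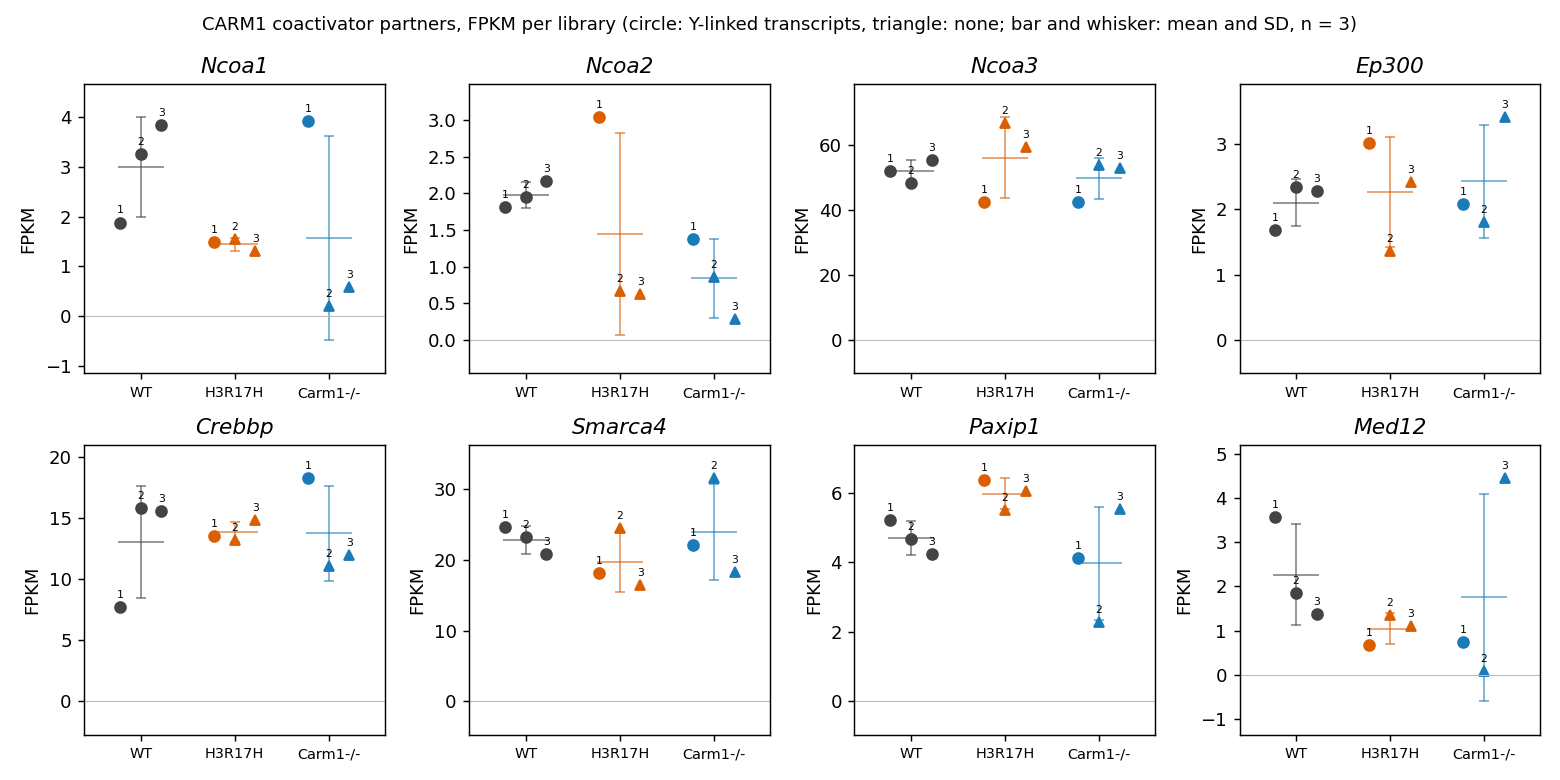
FPKM of the 8 partners in each library (points, numbered by replicate), by label, with the mean (bar) and SD (whisker) of 3 libraries; Y-linked transcripts were present in libraries drawn as circles, absent from triangles. Ncoa3 stays between 42.35 and 66.63 FPKM, whereas Ncoa1 and Med12 run from 0.21 to 3.92 and from 0.08 to 4.44 FPKM.

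None of the 8 partners passed the threshold in any of the 3 comparisons. The lowest adjusted p among them was 0.554 for the libraries labelled H3R17H against WT, 0.501 for those labelled Carm1-/- against WT and 0.733 between the edited groups (limma). The share of all tested genes past the threshold was 0% in each comparison as well, so the partners' count equals the background. At an unadjusted p under 0.05 there were again 0 partners, against 14.2%, 11.4% and 8.21% of tested genes. Against WT, 4 partners had higher and 4 lower values under the H3R17H label, with a median difference of -0.08 beside -0.03 over all tested genes, of which 52.3% were lower. Under the Carm1-/- label 3 had higher and 5 lower values, the median being -0.16 beside -0.04, and 53.7% of tested genes were lower. Both comparisons use the same WT libraries. In the direct comparison of the libraries labelled Carm1-/- with those labelled H3R17H 3 had higher and 5 lower values, the median being -0.10 beside -0.01, and 51% of tested genes were lower. With each library left out in turn, this last median ranged from -0.146 to 0.068.

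**Figure D2:**
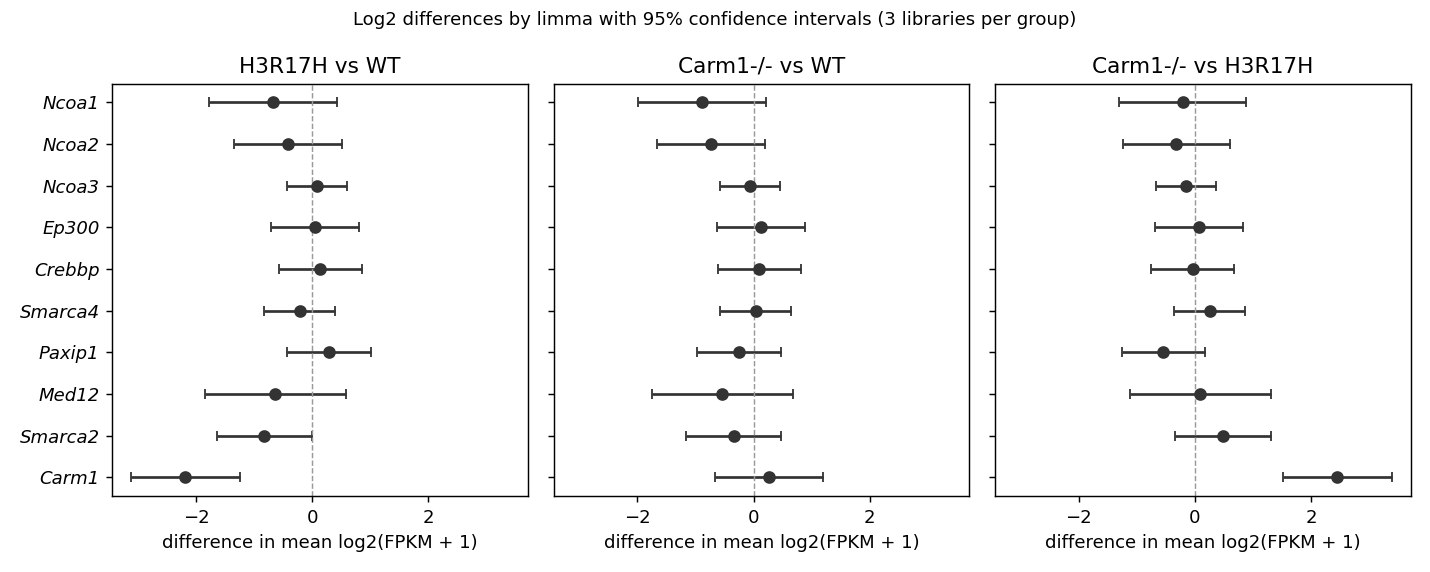
Difference in mean log2(FPKM + 1) with its 95% confidence interval from limma, for the 8 partners, the Smarca4 paralog Smarca2 and Carm1, in 3 comparisons of 3 libraries each. All 24 intervals of the partners include 0; Ncoa3 has the narrowest, and Med12 the widest.

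Ncoa1 (SRC-1), a p160 protein that docks on nuclear receptors (chromosome 12, 4247362 to 4477182, minus strand, GRCm38), had lower mean values than WT under both labels. Its WT libraries, replicates 1 to 3, gave 1.88, 3.26 and 3.83 FPKM. The libraries labelled H3R17H gave 1.48, 1.55 and 1.30 FPKM and those labelled Carm1-/- 3.92, 0.21 and 0.58 FPKM. All libraries labelled H3R17H were thus below all WT libraries, and so were replicates 2 and 3 labelled Carm1-/-, while replicate 1 of that label was the highest of the 9. The log2 difference was -0.68 (SE 0.50, 95% interval -1.77 to 0.42) for H3R17H against WT and -0.89 (SE 0.50, -1.98 to 0.21) for Carm1-/- against WT. Without replicate 1 labelled Carm1-/-, the library that lay with WT, the second difference was -1.50 and passed (limma, adjusted p = 0.048), in a fit that called 4.63% of tested genes. That fit kept only replicates 2 and 3 of the label, both without Y-linked transcripts, against WT libraries that all held them. Sex and label cannot be told apart there. With a term for Y-linked transcripts the differences were -0.06 and -0.26. All WT libraries held such transcripts, so in every fit this term rests on replicate 1 against replicates 2 and 3 of the edited groups. For Ncoa1 these were 3.92 against 0.21 and 0.58 FPKM under the Carm1-/- label. Under the H3R17H label they were 1.48 against 1.55 and 1.30 FPKM.

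Ncoa2 (SRC-2, also GRIP1), the p160 protein through which CARM1 was found (chromosome 1, 13139105 to 13374083, minus strand), stood at 1.81, 1.95 and 2.17 FPKM in WT. It stood at 3.04, 0.67 and 0.63 FPKM under the H3R17H label and 1.38, 0.86 and 0.29 FPKM under the Carm1-/- label. The libraries labelled Carm1-/- all lay below WT, and the group labelled H3R17H held both the highest library and 2 low ones. The log2 differences from WT were -0.42 (SE 0.42, 95% interval -1.34 to 0.51) and -0.73 (SE 0.42, -1.66 to 0.19), and neither passed. The 4 libraries without Y-linked transcripts had 0.29 to 0.86 FPKM of Ncoa2 and the 5 with them 1.38 to 3.04 FPKM. Such a separation, lower without Y-linked transcripts, was found for 2.78% of tested genes, and the opposite one for 3.03%. No other partner showed either, but Ncoa1 came close, at 0.21 to 1.55 FPKM without Y-linked transcripts and 1.48 to 3.92 FPKM with them. With a term for Y-linked transcripts the first difference of Ncoa2 turned from -0.42 to 0.22, and the second went from -0.73 to -0.10. The summed trophectoderm markers of those 4 libraries were 1670 and 4630 FPKM (replicates 2 and 3 labelled H3R17H) and 2070 and 2620 FPKM (replicates 2 and 3 labelled Carm1-/-), against 5670 to 8700 FPKM in WT. Replicate 1 labelled H3R17H had the lowest trophectoderm sum (1630 FPKM) and the highest Ncoa2 (3.04 FPKM) of the 9 libraries. By the median log2 difference of the tested markers from WT it was not the lowest, at -1.16. The 4 libraries were at -1.69 and -0.42 (replicates 2 and 3 labelled H3R17H) and at -1.68 and -1.36 (replicates 2 and 3 labelled Carm1-/-). The part of sex and of lineage makeup in the Ncoa1 and Ncoa2 values was not tested.

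Ncoa3 (SRC-3, AIB1), the third p160 protein and a known substrate of CARM1 (chromosome 2, 165992636 to 166073242, plus strand), was the most abundant partner in every library. It stood at 52.04, 48.10 and 55.36 FPKM in WT, against 42.35, 66.63 and 59.20 FPKM under the H3R17H label and 42.35, 53.90 and 52.79 FPKM under the Carm1-/- label. The groups overlapped, and the range over all 9 libraries was 0.64 on the log2 scale, a range smaller than that of all but 4.2% of tested genes. The log2 differences from WT were 0.09 (95% interval -0.43 to 0.60) and -0.07 (-0.58 to 0.45). In the sum of the 3 p160 genes, Ncoa3 made up 91.3 ± 1.82% in WT, 94.7 ± 3.73% under the H3R17H label and 95.1 ± 5.39% under the Carm1-/- label (SD, n = 3). Ncoa1 made up 5.24 ± 1.62%, 2.51 ± 0.56% and 3.23 ± 4.34% of that sum. By FPKM, the p160 RNA of these embryos was thus mostly Ncoa3 in every library, at 88.9% or more.

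The balance between p160 members was compared as a log2 ratio of FPKM + 1. Ncoa3 over Ncoa1 was 4.2, 3.53 and 3.54 in WT, 4.13, 4.73 and 4.71 under the H3R17H label, and 3.14, 5.51 and 5.09 under the Carm1-/- label. In the first edited group replicates 2 and 3 lay above every WT library, and so did replicates 2 and 3 of the second. The mean ratio was higher than in WT by 0.77 and 0.82, with an exact two-sided permutation p of 0.20 and 0.40. With 3 against 3 libraries this test cannot go below 0.1, and over the 12 ratio tests made here every adjusted p was 1. Ncoa2 over Ncoa1 averaged -0.39 ± 0.31 in WT, -0.13 ± 0.73 under the H3R17H label and -0.24 ± 0.84 under the Carm1-/- label (SD, n = 3), so its means lay within the spread of each group.

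**Figure D3:**
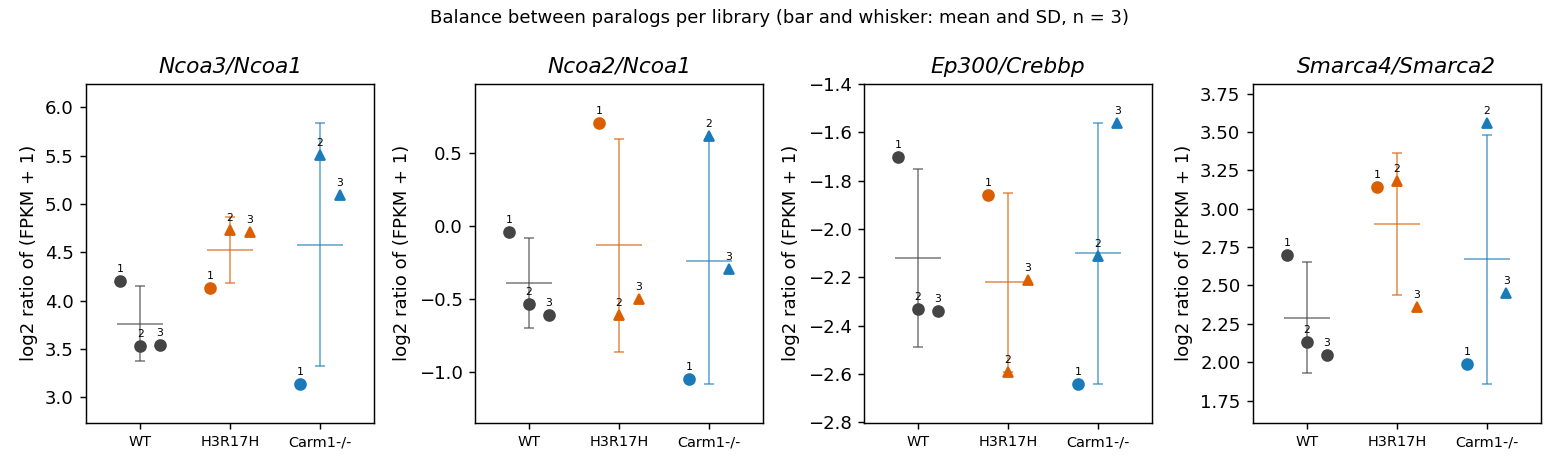
Log2 ratio of FPKM + 1 between paralogs in each library (points, numbered by replicate), by label, with mean (bar) and SD (whisker) of 3 libraries; Y-linked transcripts were present in libraries drawn as circles, absent from triangles. Ncoa3 over Ncoa1 runs from 3.14 to 5.51, both ends of it labelled Carm1-/-, and Ep300 over Crebbp lies below 0 in all 9 libraries.

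Crebbp (CBP) and Ep300 (p300) are paralogous acetyltransferases that the p160 proteins recruit and that CARM1 methylates. Crebbp (chromosome 16, 4081328 to 4213997, minus strand) stood at 7.72, 15.83 and 15.58 FPKM in WT, against 13.55, 13.22 and 14.83 FPKM under the H3R17H label and 18.24, 11.05 and 12 FPKM under the Carm1-/- label. WT replicate 1 was the lowest of the 9 libraries and the groups overlapped. Ep300 (chromosome 15, 81585351 to 81652077, plus strand) stood at 1.68, 2.34 and 2.28 FPKM in WT. The libraries labelled H3R17H gave 3.02, 1.36 and 2.42 FPKM of Ep300 and those labelled Carm1-/- 2.08, 1.80 and 3.41 FPKM, again with overlap.

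For Ep300 the log2 differences from WT were 0.05 (95% interval -0.71 to 0.81) and 0.12 (-0.64 to 0.88), and for Crebbp 0.14 (-0.58 to 0.86) and 0.10 (-0.62 to 0.82). These intervals leave room for differences of up to about 0.88 on this scale in either gene. Crebbp made up 85.5 ± 2.93% of the summed FPKM of the pair in WT, 86.1 ± 4.43% under the H3R17H label and 84.6 ± 6.08% under the Carm1-/- label (SD, n = 3). The log2 ratio of Ep300 to Crebbp averaged -2.12, -2.22 and -2.10 in the 3 groups, with exact permutation p-values of 0.7 and 1 against WT.

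Smarca4 (BRG1), the ATPase that drives the SWI/SNF remodeller, lies beside Carm1 on chromosome 9 (21616169 to 21704230, plus strand). Its start is 23.5 kb past the end of Carm1 (21592623), with 1 protein-coding gene, Timm29, between them. Smarca4 stood at 24.56, 23.12 and 20.72 FPKM in WT, against 18.17, 24.43 and 16.48 FPKM under the H3R17H label and 22, 31.44 and 18.29 FPKM under the Carm1-/- label. Under the H3R17H label, where Carm1 was at most 1.88 FPKM, Smarca4 thus overlapped WT, with a log2 difference of -0.22 (95% interval -0.82 to 0.39). Replicate 2 of that label, with 0.02 FPKM of Carm1, had 24.43 FPKM of Smarca4. In Carm1-/- against WT the difference was 0.03 (-0.57 to 0.64).

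Smarca2 (BRM), the alternative ATPase of the complex, stood at 2.93, 4.53 and 4.26 FPKM in WT, against 1.17, 1.80 and 2.41 FPKM under the H3R17H label, without overlap. Its log2 difference there was -0.82 (SE 0.37, limma unadjusted p = 0.0501, adjusted p = 0.353). Under the Carm1-/- label it was at 4.77, 1.75 and 2.54 FPKM and overlapped WT. The log2 ratio of Smarca4 to Smarca2 averaged 2.29 ± 0.36 in WT, 2.90 ± 0.46 under the H3R17H label and 2.67 ± 0.81 under the Carm1-/- label (SD, n = 3), with exact permutation p-values of 0.2 and 0.7 against WT. Smarca4 was in place 7, 6 and 6 by mean FPKM among 24 SWI/SNF subunits in the 3 groups.

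Of the 21 tested SWI/SNF subunits other than Smarca4, 8 had higher and 13 lower values in H3R17H against WT, with a median of -0.14, and 7 had higher and 14 lower values in Carm1-/- against WT, with a median of -0.13. None passed. The smallest p belonged to Arid1a, the DNA-binding subunit of the canonical complex, at 24.22, 24.72 and 27.13 FPKM in WT, against 13.75, 10.13 and 16.91 FPKM under the H3R17H label (log2 difference -0.88, adjusted p = 0.248, limma). Arid1a, Smarcb1 and Smarca2 were among 6 subunits whose libraries labelled H3R17H all lay below WT, which 15.6% of tested genes did. Smarcb1, a core subunit, averaged 89.4 ± 8.41 and 58.5 ± 18.9 FPKM in these groups (SD, n = 3), and Brd9, of the non-canonical complex, 15.5 ± 0.77 in WT and 9.94 ± 1.97 FPKM under the Carm1-/- label.

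Paxip1 (PTIP), a BRCT-domain subunit of the MLL3/MLL4 histone methyltransferase complexes (chromosome 5, 27740080 to 27791691, minus strand), was the partner whose libraries labelled H3R17H all lay above WT. It stood at 5.22, 4.67 and 4.23 FPKM in WT, against 6.36, 5.50 and 6.06 FPKM under the H3R17H label, and 13.3% of tested genes were separated upward in the same way. The log2 difference was 0.29 (95% interval -0.43 to 1.01) and did not pass. Under the Carm1-/- label it was at 4.11, 2.29 and 5.53 FPKM, with replicate 2 the lowest of the 9 libraries. The difference between the edited groups was -0.54 (-1.26 to 0.18; limma, adjusted p = 0.733). Counted in both directions, 3 of the 8 partners (Ncoa1, Med12 and Paxip1) did not overlap WT in H3R17H against WT, where 28.9% of tested genes did not. In Carm1-/- against WT 1 of 8 (Ncoa2) did not, against 16.6% of tested genes (9.71% below WT, as Ncoa2 was), and between the edited groups 0 of 8 did not, against 11.2%.

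Paxip1 took place 8, 6 and 8 by mean FPKM among 10 genes of the MLL3/MLL4 complexes in the 3 groups, below the shared subunits Dpy30 (151 FPKM in WT) and Ash2l (107 FPKM in WT). Of the other 9 genes, 5 had higher and 4 lower values in H3R17H against WT, with a median of 0.07, and 4 and 5 in Carm1-/- against WT, with a median of -0.01. None passed. Kmt2d, the MLL4 methyltransferase, was at 3.42, 2.40 and 1.41 FPKM in WT, against 5.44, 2.94 and 4.02 FPKM under the H3R17H label and 6.33, 1.47 and 1.61 FPKM under the Carm1-/- label. Wdr5, a scaffold of all MLL complexes, averaged 47.2 ± 7.58 FPKM in WT, against 73.0 ± 20.0 FPKM under the H3R17H label (SD, n = 3; limma, adjusted p = 0.332).

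Med12, a subunit of the kinase module of Mediator and a CARM1 substrate, is X-linked (101274030 to 101297465, plus strand) and had the widest range of the 8 partners over the 9 libraries, 2.34 on the log2(FPKM + 1) scale. It stood at 3.56, 1.85 and 1.38 FPKM in WT, against 0.67, 1.36 and 1.11 FPKM under the H3R17H label and 0.74, 0.08 and 4.44 FPKM under the Carm1-/- label. The libraries labelled H3R17H lay just below WT, since their highest (1.36 FPKM) and the lowest WT library (1.38 FPKM) nearly met. The group labelled Carm1-/- held both the lowest and the highest of the 9 libraries. The log2 differences from WT were -0.63 (SE 0.55, 95% interval -1.84 to 0.58) and -0.54 (SE 0.55, -1.75 to 0.67). The second was -1.20 without replicate 3 labelled Carm1-/-, -0.03 without replicate 2 of that label and -0.02 with array quality weights, and passed in none of these fits.

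Libraries with and without Y-linked transcripts overlapped in Med12. The 4 libraries without Y-linked transcripts had 0.08 to 4.44 FPKM of Med12, and the 5 with Y-linked transcripts had 0.67 to 3.56 FPKM. With a term for Y-linked transcripts the differences from WT were -0.93 and -0.83, and neither passed. Replicate 2 labelled Carm1-/-, with the least Med12 (0.08 FPKM) and Ncoa1 (0.21 FPKM) of any library, had the most Smarca4 (31.44 FPKM).

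**Figure D4:**
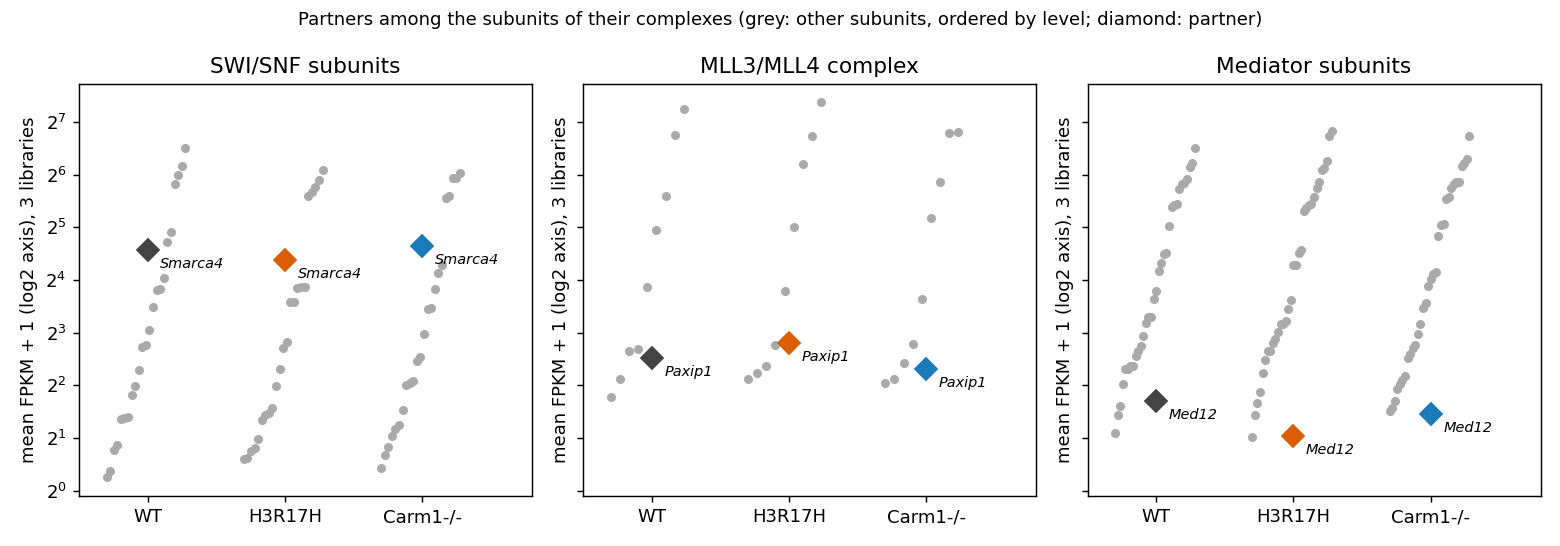
Mean FPKM + 1 over 3 libraries (log2 axis) of the subunits of SWI/SNF, MLL3/MLL4 and Mediator by label, ordered by level (grey), with the partner as a diamond. Smarca4 lies in the upper part of its complex in all groups, and Med12 at place 30, 32 and 33 of 33.

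Among 33 Mediator subunits Med12 took place 30 by mean FPKM in WT, 32 under the H3R17H label and 33 under the Carm1-/- label. The median subunit was at 11.5, 11.3 and 13.7 FPKM. Its paralog Med12l was at 2.92, 4.06 and 4.97 FPKM in WT, 3.83, 3.66 and 3.63 FPKM under the H3R17H label and 4.09, 4.10 and 1.74 FPKM under the Carm1-/- label. Its kinase Cdk8 averaged 5.70 ± 1.65, 7.99 ± 1.28 and 5.54 ± 1.10 FPKM in the 3 groups (SD, n = 3). Of the 32 other subunits 21 had higher and 11 lower values in H3R17H against WT, with a median of 0.15, and 17 and 15 in Carm1-/- against WT, with a median of 0.05. None passed. Med20 averaged 21.4 ± 1.88 FPKM in WT, against 42.2 ± 13.6 FPKM under the H3R17H label, and Med22 11.5 ± 3.10 and 21.7 ± 1.89 FPKM (SD, n = 3), both subunits of the head module.

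Among the genes that act opposite the partners, the 5 tested genes of the nuclear receptor corepressor complex had lower values in H3R17H against WT in 5 of 5 cases, with a median of -0.19, and in 4 of 5 in Carm1-/- against WT, with a median of -0.56. None of the 5 passed. Of all tested genes 52.3% and 53.7% had lower values in these comparisons. The first median was 0.13 without replicate 2 labelled H3R17H and 0.02 with array quality weights, and the second ranged from -0.693 to -0.404 without a library. Ncor1, the corepressor that binds unliganded receptors, was at 12.13, 8.76 and 12.61 FPKM in WT, against 5.17, 2.98 and 5.08 FPKM under the H3R17H label and 6.41, 5.70 and 5.36 FPKM under the Carm1-/- label. All 6 edited libraries were thus below all 3 WT libraries. Of tested genes 15.6% lay wholly below WT under the H3R17H label and 9.71% under the Carm1-/- label. The Ncor1 difference in H3R17H against WT was -1.18 (SE 0.30, adjusted p = 0.224, limma). Tbl1x, an X-linked exchange factor of the same complex, differed by -2.07 (SE 0.30, adjusted p = 0.155) in that comparison. All 3 libraries under the H3R17H label (3.08, 3.42 and 1.94 FPKM) were far below WT (15.20, 13.89 and 15.35 FPKM). Those under the Carm1-/- label (9.44, 12.66 and 7.60 FPKM) were also all below WT. In H3R17H against WT, Tbl1x passed in a fit of these groups alone (limma, adjusted p = 0.0177), with array quality weights (0.0079) and after leaving out replicate 1 labelled Carm1-/- (0.0265).

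No gene of the other coactivator and acetyltransferase lists passed either. Of 8 tested nuclear receptor coactivators outside the p160 family, 5 had higher and 3 lower values in H3R17H against WT (median 0.09) and 4 and 4 in Carm1-/- against WT (median 0.01). Nrip1, a receptor cofactor known mainly as a corepressor, was at 2.81, 1.32 and 2.88 FPKM in WT, against 0.32, 0.79 and 0.95 FPKM under the H3R17H label. Of 8 tested lysine acetyltransferases other than Ep300 and Crebbp, 5 and 4 had higher values against WT, with medians of 0.14 and -0.03. Taf1, of the general factor TFIID, averaged 3.23 ± 0.46 FPKM in WT, against 8.05 ± 4.69 FPKM under the H3R17H label (SD, n = 3). Of 8 other reported CARM1 substrates 6 had higher values in H3R17H against WT (median 0.29) and 3 in Carm1-/- against WT (median -0.03). Smarcc1, the SWI/SNF subunit BAF155 and a CARM1 substrate, was at 10.91, 9.38 and 10.47 FPKM in WT. It was at 15.13, 13.48 and 11.58 FPKM under the H3R17H label and 10.24, 9.84 and 10.11 FPKM under the Carm1-/- label. None of these genes passed in any comparison.

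The levels of the nuclear receptors that such coactivators serve ranged widely in WT. Nr1h2, an oxysterol receptor, averaged 38.6 ± 14.3 FPKM there (SD, n = 3). Nr0b1 was at 3.56, 0.00 and 0.83 FPKM in WT and listed at 0 in all 6 edited libraries. It fell short of the filter and was not tested. Of 27 listed receptors 20 had a row and 17 were tested, with 10 higher and 7 lower values in H3R17H against WT (median 0.19) and 9 and 8 in Carm1-/- against WT (median 0.26). None passed. Esrrb, an orphan receptor of the pluripotency network, was at 2.94, 3.6 and 1.28 FPKM in WT, against 4.72, 6.52 and 6.36 FPKM under the H3R17H label and 0.93, 5.50 and 1.58 FPKM under the Carm1-/- label. Vdr, the vitamin D receptor, was at 0.51, 0.51 and 0.10 FPKM in WT, against 1.13, 2.82 and 1.78 FPKM under the Carm1-/- label (log2 difference 1.06, adjusted p = 0.328, limma).

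The spread within a group limited these comparisons unequally. The median SD of a tested gene on the log2 scale was 0.29 in WT, 0.37 under the H3R17H label and 0.53 under the Carm1-/- label. Ncoa1 and Med12 had SDs of 1.08 and 1.20 in the last group, and Ncoa3 and Smarca4 0.19 and 0.38. Under the H3R17H label the SD of Ncoa1 was 0.08 and that of Ncoa2 0.75. The SEs in the comparisons against WT therefore ran from 0.23 for Ncoa3 to 0.55 for Med12. All 3 groups entered 1 fit, so the spread under the Carm1-/- label also entered the SEs of H3R17H against WT. In a fit of those 2 groups alone the SEs were 0.218 for Ncoa3, 0.307 for Ncoa1 and 0.342 for Med12, and none of these partners passed.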

How the data were processed

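The authors deposited 1 table of FPKM for 9 libraries. Bowtie 0.12.2, mm10 and GRCm38 appear in the submitters' processing notes without a stated role. How FPKM were computed, and on which annotation, is not given in the sources used here. Without depths no counting interval can be given. Reads of paralogs with near-identical stretches may be split in a way that cannot be checked.

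Values were taken as log2(FPKM + 1). A gene was tested if 3 or more libraries reached 1 FPKM, which kept 11850 of 16070 rows. All 9 libraries entered 1 limma fit with an intensity trend, without covariates, after the script was tested on simulated data. The fits used limma 3.58.1 (R 4.3.3). Tables and plots used pandas 2.3.3, numpy 2.4.6, matplotlib 3.10.9 and Python 3.11.15. Gene positions are from GENCODE M21 on GRCm38, matched by symbol and chromosome. Promoters are from RefSeq, GRCm38.p6.

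The members and lists were chosen with earlier results of these data known. Named were the 8 members, Carm1, Smarca2, per list up to 3 genes with the smallest p, and per member the 2 genes of the nearest profile; not all are printed, and Kmt2d, Med12l, Cdk8, Dpy30, Ash2l, Nr1h2, Nr0b1 and the marker genes were chosen after their values were seen. The libraries of a comparison were said not to overlap where every value of one group was above every value of the other.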

Additional observations from a re-analysis of the deposited data

How the results depend on the processing

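Alternatives changed 1 choice at a time: the pseudocount, filter, scaling and trend, weights for array quality, a fit of the 2 groups alone, a replicate block, a term for Y-linked transcripts, or a library left out. No partner passed under any of them except Ncoa1 in Carm1-/- against WT without replicate 1 of that label (limma, adjusted p = 0.048, with a range to 0.996 over the alternatives for Ncoa1). Of 465 partner differences refitted, 437 kept their direction and their side of the threshold. Of 540 list medians 44 moved by more than the spread between replicates. Leaving out a library also turned the sign of the medians against WT of the MLL3/MLL4, acetyltransferase and other coactivator lists, and of the substrates in Carm1-/- against WT. Without a library, 0 to 1 partner passed in Carm1-/- against WT. With a mean of at least 5 FPKM, Ncoa1, Ncoa2, Ep300, Paxip1 and Med12 were not tested.

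Genes called in H3R17H against WT numbered 1 with a pseudocount of 5, 240 in a fit of these 2 groups, 192 with array quality weights and 0 to 125 without a library. In Carm1-/- against WT they numbered 1 with a pseudocount of 0.1, 1 with array quality weights and 0 to 549 without a library. Between the edited groups they numbered 1 with either pseudocount, 2 with quantile normalization, 3 without a trend and 0 to 10 without a library. The count of 125, of 549 and of 10 came without replicate 1 labelled Carm1-/-. Carm1 in H3R17H against WT passed in a fit of these 2 groups (-2.18), with array quality weights (-2.08) and after leaving out replicate 1 labelled Carm1-/- (-2.18), and ranged from -2.492 to -1.745 without a library.

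Replicate numbers did not pair the libraries: deviations of same-numbered libraries correlated at -0.013, -0.026 and 0.009 across genes for H3R17H and WT, and not every library correlated best with its own number. With the replicate block 0 genes were called in each comparison, as without it.

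Direction turned for small differences. In H3R17H against WT the term for Y-linked transcripts gave 0.218 for Ncoa2 and -0.206 for Ncoa3. Leaving out a library gave ranges of -0.046 to 0.275 for Ncoa3, -0.119 to 0.264 for Ep300 and -0.17 to 0.304 for Crebbp. In Carm1-/- against WT array quality weights gave 0.003 for Ncoa3 and -0.117 for Smarca4, and the term for Y-linked transcripts -0.052 for Smarca4. The ranges without a library were -0.127 to 0.043 for Ncoa3, -0.074 to 0.255 for Ep300, -0.21 to 0.264 for Crebbp, -0.173 to 0.202 for Smarca4 and -0.474 to 0.021 for Paxip1. Between the edited groups a pseudocount of 0.1 gave -0.343 for Med12, and the ranges were -0.82 to 0.194 for Ncoa1, -0.542 to 0.116 for Ncoa2, -0.142 to 0.241 for Ep300, -0.246 to 0.091 for Crebbp and -0.568 to 0.601 for Med12.

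Of the paralog ratios, Ncoa3 over Ncoa1 between the edited groups was -0.13 with a pseudocount of 5 and -0.41 to 0.775 without a library. Ncoa2 over Ncoa1 between them was 0.151 with a pseudocount of 0.1 and -0.536 to 0.314 without a library, against WT -0.163 to 0.494 (H3R17H) and -0.279 to 0.557 (Carm1-/-). Ep300 over Crebbp in Carm1-/- against WT was -0.013 with a pseudocount of 5 and -0.253 to 0.29 without a library, in H3R17H against WT -0.276 to 0.116 and between the edited groups -0.158 to 0.385. Smarca4 over Smarca2 ranged from -0.071 to 0.712 in Carm1-/- against WT and from -0.675 to 0.108 between the edited groups. The cause of these changes was not tested.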

Other observations

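The genes whose centred log2(FPKM + 1) profile lay nearest to that of a partner over the 9 libraries were found by the root-mean-square difference. The search covered 6076 or 6077 tested genes with a mean of at least 5 FPKM, without predicted genes, clone names and symbols listed more than once. For Ncoa3 these were Ldb1 (0.10) and Arf5 (0.12), against a root-mean-square deviation of 0.20 of Ncoa3 about its own mean. For Ncoa1 they were Numa1 and Zfand1 (0.22 and 0.23, against 0.66), and for Ncoa2 Tom1l1 and Sgk1 (0.226 and 0.233, against 0.51). For Med12 they were Ube2g2 and Apoe (both 0.35, against 0.68). The libraries share groups and sex, so nearness is a description of these 9 libraries and carries no p-value.

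Oocyte markers, chosen to look for maternal material, were low in most libraries, with 4 of 8 listed genes in the table. Their summed FPKM was 0.27 to 1.52 in WT, 0.18 to 1.69 in the libraries labelled H3R17H and 2.27, 26.3 and 9.29 in replicates 1 to 3 labelled Carm1-/-. The value of replicate 2 was mostly Zp3, a zona pellucida gene, at 19.98 FPKM. Figla, an oocyte transcription factor, and Zp2 were at 4.24 and 2.05 FPKM there and at 2.26 and 2.29 FPKM in replicate 3, against at most 0.36 and 0.03 FPKM in WT. Gdf9, an oocyte growth factor, was at 0.03 FPKM in replicate 2. This is also the library with the lowest Ncoa1, Paxip1 and Med12 of the 9; the part of these markers in those values was not tested.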
